A study of Mus musculus with 12 samples.

Results

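The CCN and thrombospondin matricellular genes were followed in MC3T3-E1 cells treated with 25(OH)D, that is 25-hydroxyvitamin D, from which cells make the active hormone calcitriol. The members were the 10 entries of the deposited count table named Ccn1, Ccn2, Ccn3, Ccn4, Ccn5, Thbs1, Thbs2, Thbs3, Postn and Tnc, out of 56691 entries in all. All 10 passed the filter on low counts, which left 14394 genes for the test.

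MC3T3-E1 is an established mouse pre-osteoblast line from calvarial bone. All 4 groups grew for 28 days in the same osteogenic medium. It held 50 µg/ml ascorbic acid, 0.1 µM of the glucocorticoid dexamethasone and 10 mM of beta-glycerophosphate (BGP), from which cells release phosphate. For 24 h from day 27 the cells received 25(OH)D at 100 µM, the same with a further 4 mM BGP, or the same with 100 µM ZK191784, a compound known here by its code name. The control group received none of these additions. RNA was read by 3′ mRNA-seq, in which a read marks the end of a transcript, in 3 libraries for each group. The dose of 25(OH)D is the labelled one, with a unit that no other source used here gives. No group received BGP or ZK191784 without 25(OH)D, the line is a single cell line, and no label ties the libraries to separate cultures. The spread that the p-values rest on is that between libraries, which may be technical.

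Matricellular proteins are secreted into the matrix and act on cells rather than bearing load. CCN proteins are cysteine-rich modular proteins that bind integrins and heparan sulfate proteoglycans, and Ccn1 and Ccn2 are textbook targets of the YAP and TAZ coactivators with TEAD factors and of TGF-beta. Thrombospondins bind calcium, matrix proteins and receptors such as CD36 and CD47, and thrombospondin-1 can activate latent TGF-beta. Periostin (Postn) and tenascin-C (Tnc) bind integrins and are made by osteoblast-lineage cells in growing and healing bone.

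Total counts per library ran from 3318723 to 5170980, and levels are given as CPM (counts scaled to library size) after TMM scaling. Within each group the libraries differed in the log2 ratio of ribosomal protein gene counts to counts of their pseudogenes and of Gm-numbered predicted genes. That library ratio was −0.45, −1.16 and −1.75 in 25(OH)D libraries 1, 2 and 3, −1.66, −0.45 and −1.12 with added BGP, −0.79, −1.13 and −1.58 with added ZK191784, and −1.68, −1.79 and −0.58 in control. Several members followed it closely, as described after the first comparison. All 12 osteoblast markers looked up were counted in every group. Of the endothelial markers, Cdh5 had 0 counts in all libraries, but others were counted. Pecam1 summed to 273 counts with 25(OH)D and 477 in control, Kdr to 53 and 120, and Tek to 13 and 7. The osteocyte marker Dmp1 summed to 36 counts with 25(OH)D, 140 with added BGP, 50 with added ZK191784 and 33 in control. Dmp1, singled out after its values were seen, was 4.02-fold higher with BGP than in control (adjusted p = 0.0187). There 9 of the 12 markers were lower and 2 higher at an adjusted p under 0.05, beside 4.35% and 3.9% of all genes. Between added BGP and 25(OH)D alone, 0 of the 12 passed.

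Cells given 25(OH)D were first set against control. The members moved in opposite directions. Ccn2 and Ccn5 rose, while Ccn4, Thbs1, Thbs2 and Tnc fell, and Ccn1, Ccn3, Thbs3 and Postn did not pass the test. These were 6 of 10 members called at an adjusted p under 0.05 (edgeR's quasi-likelihood test, Benjamini-Hochberg over all genes), beside 8.68% of all genes tested. By direction, 2 of 10 were called higher, beside 4.76% of all genes, and 4 of 10 lower, beside 3.93%. As the members were chosen with earlier results of these data known, such shares describe this list only. The 3 libraries of each group did not overlap for 8 of the 10 members, beside 21.9% of all genes. The median log2 difference was −0.92 over the 10 members and −0.05 over all genes. Of the 12 osteoblast markers, 9 fell, 1 rose and 2 (Sp7 and Dmp1) did not pass, and the summed level of the 12 was 21398 to 24189 CPM per library with 25(OH)D, against 125211 to 139480 CPM in control. Sparc was the largest part of that sum, with 146739 counts with 25(OH)D and 950635 in control. In bulk RNA fewer cells of a type and less RNA per cell cannot be told apart.

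**Figure D1:**
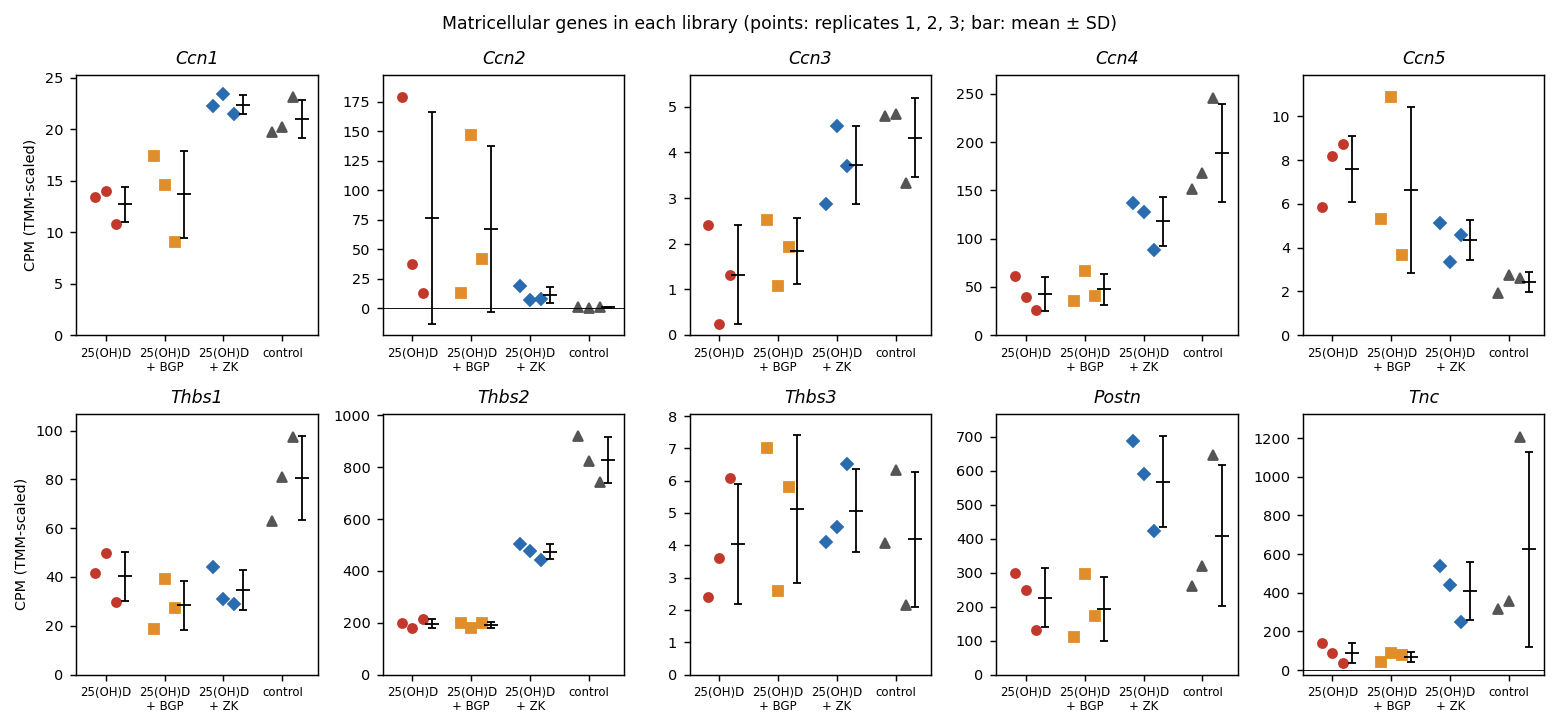
CPM of each of the 10 genes (vertical axis, TMM-scaled, linear) in the 3 libraries of each group, with the mean and SD beside the points; some SD bars of Ccn2 reach below 0. Ccn2 spanned 12.4 to 179 CPM within the 25(OH)D group, while Thbs2 spanned 179 to 213 CPM with 25(OH)D and 744 to 921 CPM in control.

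Among the CCN genes, Ccn2 (connective tissue growth factor) moved most. It was counted 670, 156 and 47 times in the 25(OH)D libraries, against 2, 0 and 4 times in control. On the CPM scale this was 179, 37.6 and 12.4 with 25(OH)D, against 0.48, 0 and 0.952 in control. The lowest 25(OH)D library thus lay above every control library, but the 25(OH)D libraries themselves differed 14.4-fold. The log2 fold change was 7.29 ± 1.43 (SE, adjusted p = 0.00631), with a 95% interval from 4.16 to 10.41. It was 5.68 without 25(OH)D library 1, 6.68 without control library 2 and 8.25 without control library 3, and the call was lost when no filter on low counts was used (adjusted p = 0.0719).

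Ccn4 (WISP1, a Wnt-induced protein that promotes osteoblast differentiation) ran the other way. It had 61.2, 39.5 and 26.4 CPM with 25(OH)D, against 151, 168 and 246 CPM in control. Every 25(OH)D library lay below every control library. Ccn4 fell by 2.15 on the log2 scale (SE 0.33, adjusted p = 0.00109), and this call held under all 19 alternatives.

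Ccn5 (WISP2, a CCN protein without the C-terminal cystine-knot module) had 5.88, 8.20 and 8.72 CPM with 25(OH)D, against 1.92, 2.74 and 2.62 CPM in control. The groups did not overlap, though the counts behind them were small, at 89 summed with 25(OH)D and 32 in control. The log2 fold change was 1.63 ± 0.43 (adjusted p = 0.0315). Ccn5 was not called without control library 1 (adjusted p = 0.120), 2 (0.0702) or 3 (0.0521), without 25(OH)D library 2 (0.0972) or 3 (0.0770), and with a replicate block (0.0610).

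Ccn1 (CYR61, an angiogenic integrin ligand) had 13.4, 14.0 and 10.8 CPM with 25(OH)D, against 19.7, 20.2 and 23.1 CPM in control. The groups did not overlap, but the log2 difference of −0.72 ± 0.24 did not pass over all genes (adjusted p = 0.1). Ccn3 (NOV, an inhibitor of osteoblast differentiation) was rare, with 9, 1 and 5 counts with 25(OH)D against 20, 23 and 14 in control. Its log2 difference of −1.71 ± 0.58 did not pass either (adjusted p = 0.103), but did without 25(OH)D library 1 (−2.46, adjusted p = 0.0494) and with DESeq2 (adjusted p = 0.0349). Without 25(OH)D library 2 it was −1.19 (adjusted p = 0.285).

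Among the thrombospondins, Thbs2, which shapes collagen fibril assembly and restrains the proliferation of marrow stromal progenitors in mice, had the smallest p of the 10 members. It had 198, 179 and 213 CPM with 25(OH)D, against 921, 824 and 744 CPM in control. The highest 25(OH)D library stood far below the lowest control library, and the libraries within a group differed by 1.19-fold with 25(OH)D and 1.24-fold in control. Thbs2 fell by 2.08 on the log2 scale (SE 0.13, adjusted p = 9.34e-07).

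Thbs1, which activates latent TGF-beta, had 41.5, 49.7 and 29.8 CPM with 25(OH)D, against 63.1, 81.1 and 97.5 CPM in control. The groups did not overlap. Thbs1 fell by 1.00 on the log2 scale (SE 0.28, adjusted p = 0.0486), a call just inside the threshold. It held in 9 of 19 alternatives. It was lost without 25(OH)D library 1 (adjusted p = 0.122), 2 (0.0613) or 3 (0.128), control library 2 (0.107) or 3 (0.107), library 3 with BGP (0.0753) or library 2 (0.0744) or 3 (0.0596) with ZK191784. It was also lost with a replicate block (0.0886) and in a fit of these 2 groups alone (0.0678). Thbs3, a cartilage and bone thrombospondin of the pentameric subgroup, ranged from 2.41 to 6.07 CPM with 25(OH)D and from 2.14 to 6.32 CPM in control, a log2 difference of −0.06 with a 95% interval from −1.15 to 1.03 (adjusted p = 0.963).

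Tnc and Postn each had 1 high control library, library 3. Tnc had 139, 86.8 and 35.7 CPM with 25(OH)D, against 314, 355 and 1204 CPM in control. The groups did not overlap, and control library 3 was more than 3-fold above control library 2. Tnc fell by 2.84 on the log2 scale (SE 0.61, adjusted p = 0.0105), and by 1.92 without control library 3 (adjusted p = 0.0230). The call was lost with no filter on low counts (adjusted p = 0.106). Postn had 299, 248 and 131 CPM with 25(OH)D, against 260.2, 318 and 645 CPM in control, so the groups overlapped. Its log2 difference was −0.85 ± 0.42 (adjusted p = 0.294).

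Promoter windows from RefSeq (build GRCm38.p6, 250 bases before to 50 after a start site) were matched by symbol for 5 of the 10 members, Ccn1, Thbs2, Thbs3, Postn and Tnc, in 7 windows; none was used for Ccn2, Ccn3, Ccn4, Ccn5 and Thbs1. Letters tied to signals that act on this family, and the letters TATAAA, were searched on both strands at any position in the window. GGAATG (TEAD) was in 1 member window, that of Ccn1, and in 14.7% of 32851 windows of all genes. TGANTCA (AP-1) was in 0 member windows and in 7.81% of all windows. CAGAC (SMAD) was in 5 of the 7 member windows and in 49.6% of all, and TATAAA in 5 of 7 and in 13.6%. The pair of Tnc windows overlap, so either motif was in 4 members. From the start site, TATAAA lay at −25 in Ccn1, −26 in a Postn window, −126 in Thbs2, and −126 and −205 in the Tnc windows. A match to TATAAA is therefore not in itself a TATA box. Thbs2 and Tnc are shown because both fell with 25(OH)D, and Ccn1 because it holds the TEAD letters. Capitals mark any match to these letters, and a match describes the sequence only.
Ccn1, chr3:145649936-145650235, minus strand: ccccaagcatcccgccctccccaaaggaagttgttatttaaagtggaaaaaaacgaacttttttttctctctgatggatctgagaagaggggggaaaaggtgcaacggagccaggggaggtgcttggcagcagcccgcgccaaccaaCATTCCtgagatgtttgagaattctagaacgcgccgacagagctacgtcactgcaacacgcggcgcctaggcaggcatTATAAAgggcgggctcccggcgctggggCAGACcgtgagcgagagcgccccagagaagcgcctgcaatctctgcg
Thbs2, chr17:14694213-14694512, minus strand: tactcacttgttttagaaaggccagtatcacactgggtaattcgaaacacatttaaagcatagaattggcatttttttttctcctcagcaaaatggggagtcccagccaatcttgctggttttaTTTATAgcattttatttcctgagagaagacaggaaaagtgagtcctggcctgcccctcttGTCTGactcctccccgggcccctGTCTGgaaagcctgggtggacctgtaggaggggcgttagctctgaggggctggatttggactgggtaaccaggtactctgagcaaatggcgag
Tnc, chr4:64046887-64047186, minus strand: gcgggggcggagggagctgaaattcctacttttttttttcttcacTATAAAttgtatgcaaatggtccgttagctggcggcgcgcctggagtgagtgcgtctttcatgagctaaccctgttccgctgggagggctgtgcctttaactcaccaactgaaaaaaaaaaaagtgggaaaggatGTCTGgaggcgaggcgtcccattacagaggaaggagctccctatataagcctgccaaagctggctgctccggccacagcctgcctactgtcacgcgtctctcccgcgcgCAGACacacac

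The spread within groups followed the library ratio for some members and not for others. In the 25(OH)D group, Ccn2, Ccn4, Postn and Tnc were each highest in library 1, which had the highest ratio, and lowest in library 3. With added BGP all 4 were highest in library 2, which had the highest ratio there, and lowest in library 1. Control library 3, with the highest ratio of its group, was the control library in which Ccn1, Ccn2, Ccn4, Postn, Tnc and Thbs1 were highest. Of these, all but Ccn2 departed from the order of the ratio between control libraries 1 and 2. With ZK191784, Ccn4, Postn and Tnc rose with the ratio, but Ccn2 did not keep its order. Thbs3 ran the other way, and its CPM fell as the ratio rose within all 4 groups.

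In a fit with the ratio as a covariate, the slope on the ratio was called for 6 of the 10 members, 5 positive and 1 negative, beside 51.4% of all genes, so the share of members is near that of all genes. The size of the slope set Ccn2 apart from the other members, at 2.78 ± 0.16 log2 units of expression per unit of the log2 ratio (adjusted p = 9.86e-16). It was the 17th highest of 14394 slopes. The slopes were 1.38 ± 0.10 for Tnc, 1.00 ± 0.08 for Postn, 0.72 ± 0.09 for Ccn4, 0.50 ± 0.12 for Thbs1 and −1.08 ± 0.27 for Thbs3. Those of Thbs2 (−0.09 ± 0.08), Ccn1 (0.09 ± 0.16), Ccn3 (−0.26 ± 0.39) and Ccn5 (0.22 ± 0.28) were not called.

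With that covariate, 9 of the 10 members were called between 25(OH)D and control, 2 higher and 7 lower. Of all 14394 genes tested, 2853 were called with it, 1458 higher and 1395 lower, in place of 1250 without it. Ccn2 was 6.66 ± 0.38 higher on the log2 scale with the covariate, with an SE far below the 1.43 of the fit without it. The control side rests on 2, 0 and 4 counts of Ccn2, and the SE is derived from the F statistic. So near the floor, such an SE may be too small in any comparison of Ccn2 with control. Postn (−1.05 ± 0.12, adjusted p = 6.49e-09), Ccn1 (−0.74 ± 0.22, adjusted p = 0.0143) and Ccn3 (−1.63 ± 0.56, adjusted p = 0.0342) passed with the covariate and not without it. What the ratio stands for was not tested.

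**Figure D2:**
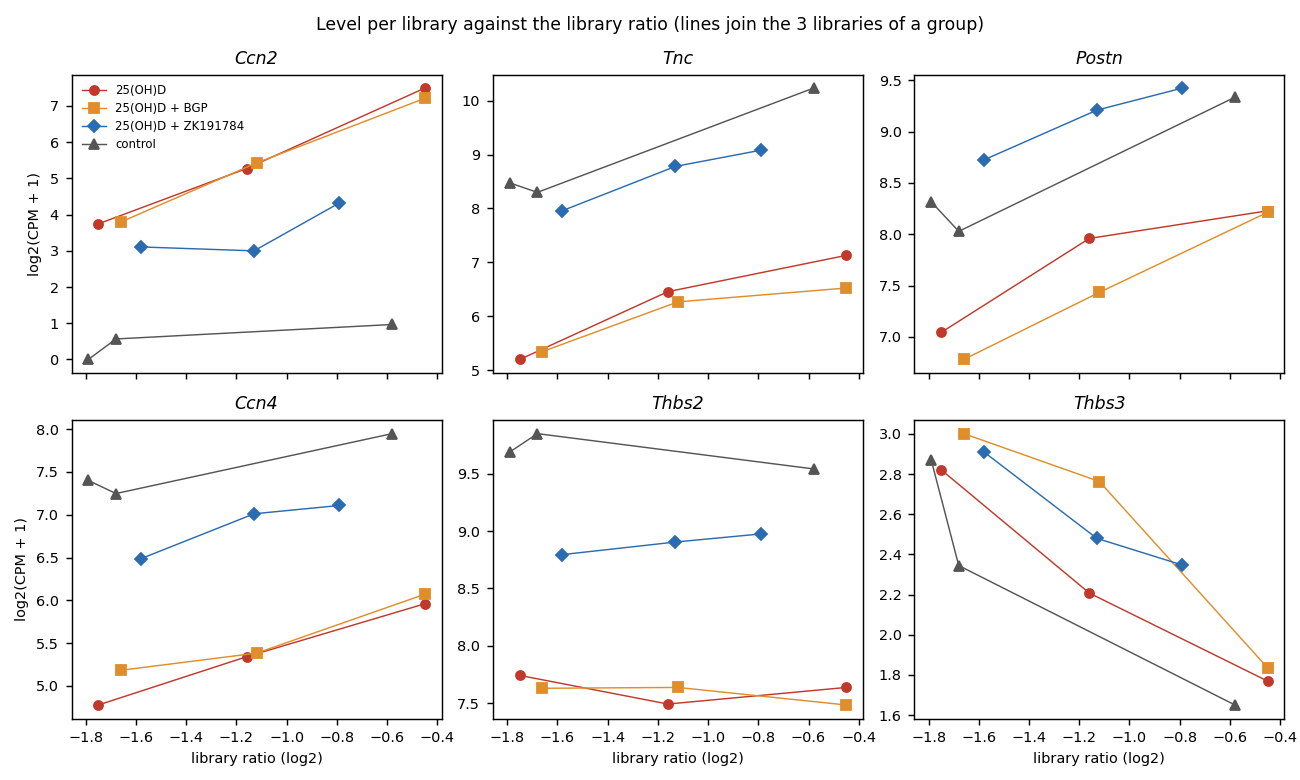
Level of 6 genes as log2(CPM + 1) (vertical axis) against the log2 library ratio (horizontal axis), with lines joining the 3 libraries of a group. Ccn2, Tnc, Postn and Ccn4 are higher in the 25(OH)D libraries with a higher ratio, Thbs3 is lower, and Thbs2 has a slope of −0.09 ± 0.08.

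The cells given a further 4 mM BGP were set against those given 25(OH)D alone. None of the 10 members passed against 25(OH)D alone, and all had an adjusted p = 1.000. Of all 14394 genes edgeR called 0 (0%). At an unadjusted p under 0.05 it had 268 genes and 0 members, and DESeq2 called 0 genes. The 3 libraries of the 2 groups overlapped for all 10 members, while they were apart for 6.04% of all genes. Thbs2 had 197, 178 and 198 CPM with BGP, against 198, 179 and 213 CPM with 25(OH)D alone. The 2 groups interleave, and its log2 difference of −0.04 had a 95% interval from −0.32 to 0.24. Ccn2 had 12.9, 147 and 42.0 CPM with BGP, against 179, 37.6 and 12.4 CPM with 25(OH)D alone. Here the spread was so wide that the interval of the difference ran from −2.12 to 1.77. Adjusted for the library ratio, the difference of Ccn2 was −0.15 ± 0.18. Thbs1 differed by −0.51 ± 0.29, the lowest value of the 10.

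Against control, the combination with BGP gave 5 members called, beside 8.25% of all genes. Of the 10, 1 was called higher, beside 3.9% of all genes, and 4 lower, beside 4.35%. The libraries were apart for 8 of the 10, beside 21.0% of all genes. This comparison and that of 25(OH)D alone share the control libraries. Ccn2 was 7.11 ± 1.43 higher on the log2 scale (adjusted p = 0.00767), a value of 5.83 without library 2 with BGP, 6.52 without control library 2 and 8.09 without control library 3. Tnc fell by 3.18 (SE 0.62), or by 2.22 without control library 3. With no filter on low counts neither was called (adjusted p = 0.0829 for Ccn2 and 0.0760 for Tnc). Thbs2 fell by 2.12 (SE 0.13), Ccn4 by 1.99 (SE 0.33) and Thbs1 by 1.50 (SE 0.29, adjusted p = 0.00520). The Thbs1 call held here under all 19 alternatives. Ccn5 had 5.33, 10.9 and 3.66 CPM with BGP, against 1.92, 2.74 and 2.62 CPM in control. It did not pass (1.44 ± 0.43, adjusted p = 0.0610), but did without library 3 with BGP (adjusted p = 0.0298), with DESeq2 (0.0244) and with the library ratio as covariate (0.0175).

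ZK191784 was then set against 25(OH)D alone. Thbs2 and Ccn4 rose, 2 of 10 members called beside 3.53% of all genes. Genes called higher were 1.42% of all, and 0 members fell, beside 2.11% of all genes. The libraries were apart for 7 of the 10, with 6 higher and 1 lower with ZK191784, beside 17.5% of all genes. The median log2 difference was 1.04 over the 10 members and 0.02 over all genes.

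Thbs2 had 502, 478 and 443 CPM with ZK191784, against 198, 179 and 213 CPM with 25(OH)D alone. The lowest library with ZK191784 was more than 2-fold above the highest without it. Thbs2 rose 2.41-fold (log2 1.27 ± 0.13, adjusted p = 0.000133), a call that held under all 19 alternatives. Ccn4 had 137, 128 and 88.7 CPM with ZK191784, against 61.2, 39.5 and 26.4 CPM with 25(OH)D alone. It rose 2.78-fold (1.47 ± 0.33, adjusted p = 0.0251). It was not called without 25(OH)D library 2 (adjusted p = 0.110) or 3 (0.0758), without library 1 (0.0989) or 2 (0.104) with ZK191784, and with a replicate block (0.0694).

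Tnc, Postn and Ccn1 were apart between the groups without passing. Tnc had 541, 439 and 248 CPM with ZK191784, against 139, 86.8 and 35.7 CPM with 25(OH)D alone (2.23 ± 0.59, adjusted p = 0.0681). It passed without control library 3 (adjusted p = 0.0116), which is in neither group but enters the shared estimate of spread. Postn had 686, 591 and 422 CPM with ZK191784, against 299, 248 and 131 CPM with 25(OH)D alone (1.33 ± 0.42, adjusted p = 0.142). Ccn1 had 22.3, 23.4 and 21.5 CPM with ZK191784, against 13.4, 14.0 and 10.8 CPM with 25(OH)D alone (0.81 ± 0.24, adjusted p = 0.107). DESeq2 called all 3 (adjusted p = 0.00312, 0.0491 and 0.0372 for Tnc, Postn and Ccn1), and so did adjustment for the library ratio (6.54e-14, 7.72e-12 and 0.00842). A fit of these 2 groups alone called Tnc (adjusted p = 0.0334) and Postn (0.0462) but not Ccn1 (0.0952). With any library of these 2 groups left out, none of the 3 was called.

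Ccn2 had 19.0, 6.99 and 7.61 CPM with ZK191784, against 179, 37.6 and 12.4 CPM with 25(OH)D alone. The groups overlapped because 25(OH)D library 3 lay below library 1 with ZK191784. The log2 difference of −2.75 ± 0.98 did not pass (adjusted p = 0.219), and without 25(OH)D library 1 it was −1.15 (adjusted p = 0.856). Without library 1 with ZK191784 it was −3.38 (adjusted p = 0.284). Only adjustment for the library ratio, 1 of 19 alternatives, gave a call (−2.06 ± 0.21, adjusted p = 2.14e-09). Ccn5 differed by −0.80 ± 0.40 and Ccn3 by 1.49 ± 0.59 (adjusted p = 0.513 and 0.297). Thbs1 had 44.0, 30.9 and 28.9 CPM with ZK191784, against 41.5, 49.7 and 29.8 CPM with 25(OH)D alone. Its groups overlapped, and the difference of −0.22 had an interval from −0.84 to 0.40. Thbs3 differed by 0.33 ± 0.50.

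**Figure D3:**
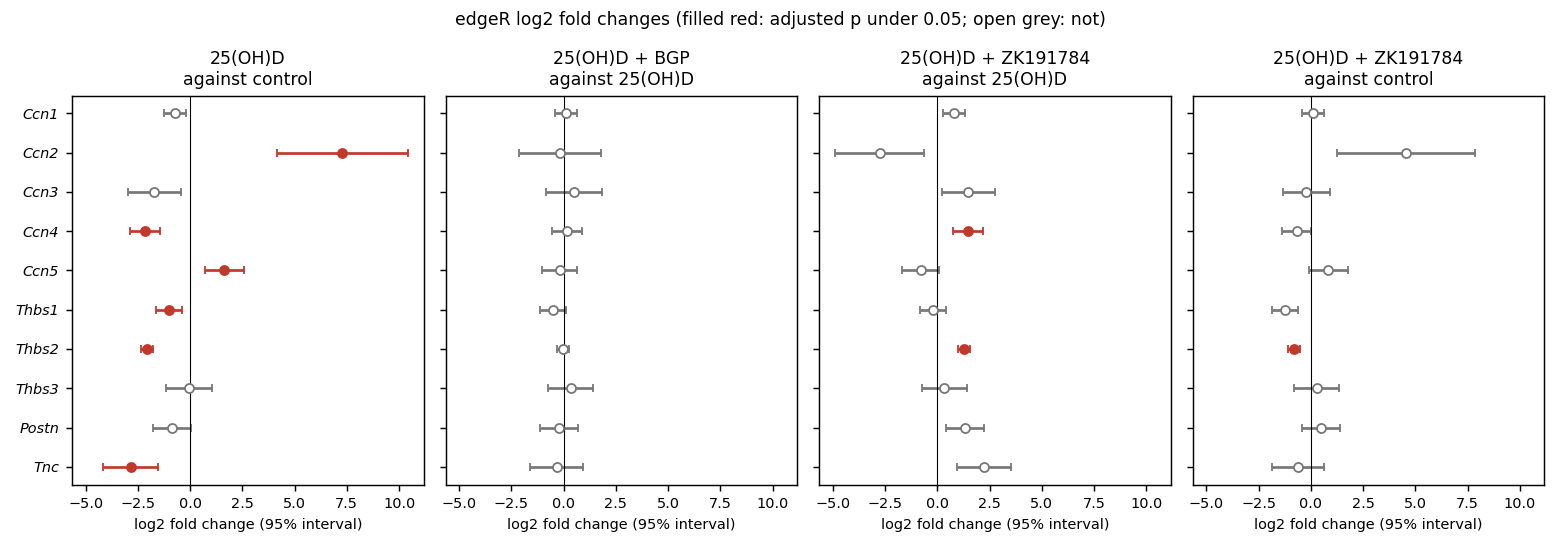
Log2 fold change of each gene (horizontal axis) with its 95% interval for 25(OH)D against control, added BGP and added ZK191784 each against 25(OH)D alone, and added ZK191784 against control, first-named group over second; filled red points passed at an adjusted p under 0.05. Thbs2 passed in the 25(OH)D, ZK191784 and ZK191784-against-control panels (−2.08, 1.27 and −0.81), and none of the 10 passed with added BGP against 25(OH)D alone.

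Set against control, the cells given 25(OH)D with ZK191784 had 1 member called, Thbs2, beside 0.723% of all genes. It was lower, as were 0.215% of all genes, and 0 members were higher, beside 0.507%. This comparison shares its control libraries with the first one and its treated libraries with the comparison of ZK191784 against 25(OH)D alone. Thbs2 had 502, 478 and 443 CPM with 25(OH)D and ZK191784, against 921, 824 and 744 CPM in control. Its level was thus below control and above 25(OH)D alone in every library, a fall by 0.81 log2 units against control (SE 0.13, adjusted p = 0.0112). It was not called without control library 1 (adjusted p = 0.0760) or 2 (0.0555), without library 1 (0.0507), 2 (0.0789) or 3 (0.0774) with ZK191784, and in a fit of the 2 groups alone (0.110).

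Ccn2 stood at 19.0, 6.99 and 7.61 CPM with 25(OH)D and ZK191784, against 0.48, 0 and 0.952 CPM in control. The groups were apart, at 157 against 6 summed counts. The log2 difference of 4.53 ± 1.51 did not pass (adjusted p = 0.392), although DESeq2 (adjusted p = 0.0263) and the fit with the library ratio (4.61 ± 0.46, adjusted p = 3.16e-09) called it, 2 of 19 alternatives. It was 3.91 without library 1 with ZK191784 (adjusted p = 0.925), 3.94 without control library 2 (0.775) and 5.50 without control library 3 (0.354). Thbs1 was apart from control too, at −1.22 ± 0.29 (adjusted p = 0.0942), called by DESeq2 (0.00600), with no filter on low counts (0.000122) and with the library ratio (2.94e-07). Ccn4 differed by −0.68 ± 0.32, Ccn1 by 0.09 ± 0.24 and Postn by 0.47 ± 0.42. Tnc differed by −0.61 ± 0.57, and by 0.31 in the other direction without control library 3.

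Family genes outside the 10 were mostly rare. Ccn6 summed to 6 counts with 25(OH)D and 0 in control, Thbs4 to 2 and 20, and Comp, the pentameric cartilage thrombospondin, to 9 and 18. Of the other 4, all of which were tested, 2 fell with 25(OH)D, beside 3.93% of all genes, and 0 rose, beside 4.76%. Tnr (−1.90 ± 0.63, adjusted p = 0.0947) and Tnxb (1.49 ± 0.44, adjusted p = 0.0556) did not pass and differed in direction. Tnn (tenascin-W, a bone tenascin) had 10.3 ± 2.54 CPM with 25(OH)D, against 76.0 ± 30.2 CPM in control (SD, n = 3 each; adjusted p = 0.000427). It was 3.43-fold higher with ZK191784 than with 25(OH)D alone (adjusted p = 0.0213). Tgfbi, the periostin paralog, had 0.433 ± 0.554 CPM with 25(OH)D and 4.42 ± 1.76 CPM in control (adjusted p = 0.0149). Its values rest on 5 summed counts with 25(OH)D and 59 in control.

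Other matricellular genes were also split by 25(OH)D, with 5 of 11 tested higher and 3 lower, beside 4.76% and 3.93% of all genes. Spp1 (osteopontin) rose by 3.92 ± 0.15 and Fbln2 (fibulin-2) by 1.66 ± 0.21 on the log2 scale, while Sparc (osteonectin), also in the osteoblast marker list, fell by 2.52 (SE 0.24). With ZK191784 added, 2 were higher than with 25(OH)D alone and 3 lower, beside 1.42% and 2.11%. Spp1 fell by 2.22 (SE 0.14) and Fbln2 by 1.52 (SE 0.21), and Sparc rose by 1.58 ± 0.23.

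Of 24 tested receptors of matricellular proteins, 5 rose and 3 fell with 25(OH)D, beside 4.76% and 3.93% of all genes. Those with the smallest p were Itga1, the alpha-1 chain of a collagen-binding integrin, at 451 ± 43.1 CPM with 25(OH)D and 66.1 ± 6.71 CPM in control, Cacna2d1, a calcium channel subunit that binds thrombospondins, and Sdc1 (syndecan-1). Cacna2d1 rose by 1.42 ± 0.16 and Sdc1 by 2.34 ± 0.26. With ZK191784 added, 0 rose and 4 fell, beside 1.42% and 2.11% of all genes. Itga1 fell by 1.68 (SE 0.14), Cacna2d1 by 1.32 (SE 0.15) and Sdc1 by 1.93 (SE 0.26).

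The pathways that control Ccn1 and Ccn2 were looked at as lists. Of 17 Hippo pathway genes 2 were called with 25(OH)D and 15 were not, a share near the 8.68% of all genes. Wwtr1, which encodes TAZ, rose with 25(OH)D (1.52 ± 0.36, adjusted p = 0.0174) and the factor gene Tead3 fell by 0.75 (SE 0.21, adjusted p = 0.0433). With ZK191784 added, 0 of the 17 were called against 25(OH)D alone, beside 3.53% of all genes. Of 17 tested YAP target genes 2 were called with 25(OH)D against control and 15 were not, again near 8.68%. Gadd45a, a growth arrest gene, rose and Ccdc80, a matrix protein gene, fell. Gadd45a had 479 ± 210.4 CPM with 25(OH)D and 9.66 ± 5.04 CPM in control (5.63 ± 0.53, adjusted p = 2.53e-05). Ccdc80 fell by 2.07 (SE 0.29). With ZK191784 added, 2 of the 17 were called, beside 3.53% of all genes. Gadd45a fell by 2.08 (SE 0.44) and Ccdc80 rose by 1.97 ± 0.29.

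Of 18 tested TGF-beta signalling genes, 5 rose and 1 fell with 25(OH)D, beside 4.76% and 3.93% of all genes. Pmepa1, a feedback inhibitor of the pathway, rose by 2.49 ± 0.18, the ligand gene Tgfb3 by 2.08 ± 0.38 and Tgfb1i1 by 1.59 ± 0.38. With ZK191784 added only Pmepa1 of these 18 was called, a share near the 3.53% of all genes, and it fell by 1.36 (SE 0.18). The median log2 difference with 25(OH)D was 0.03 for the Hippo list, 0.24 for YAP targets and 0.30 for TGF-beta signalling, beside −0.05 for all genes.

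The genes whose mean-centred profile over the 12 libraries lay closest to a member were found by the root mean square difference in log2 CPM among 11424 named genes, as a description of profiles that share libraries and treatment. Closest to Ccn2 were Gadd45a (0.72), Orm2 (0.88) and Slc41a3 (0.89), where the profile of Ccn2 itself had a root mean square of 2.59 about its mean. Gadd45a had 114 ± 36.8 CPM with ZK191784. Closest to Thbs2 were Ephb3 (0.18), Gstm2 (0.20) and Rcn3 (0.20), where that of Thbs2 was 0.90. Closest to Tnc were Itgbl1 (0.28), Hapln1 (0.36) and Dclk1 (0.37), where that of Tnc was 1.51.

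Osteoblast markers summed to 18041 to 21491 CPM per library with added BGP and 63809 to 74738 CPM with added ZK191784. With ZK191784, 7 of 12 were called higher than with 25(OH)D alone and 0 lower, beside 1.42% and 2.11% of all genes. Sparc was the largest part of these sums, with 141511 counts with added BGP and 509493 with added ZK191784. Chondrocyte markers summed to 67.6 to 151 CPM with 25(OH)D, 64.0 to 118 with added BGP, 86.8 to 179 with added ZK191784 and 99.5 to 245 in control. Sox9 made up most of that sum, with 1270 counts with 25(OH)D and 1584 in control. Col2a1 fell by 4.68 on the log2 scale with 25(OH)D (SE 0.55), 1 of 2 tested, beside 3.93% of all genes. With ZK191784 it was higher than with 25(OH)D alone by 4.02 ± 0.55 (adjusted p = 0.00118). Smooth muscle markers summed to 415 to 578 CPM with 25(OH)D, 404 to 517 with added BGP, 372 to 499 with added ZK191784 and 299 to 358 in control. Acta2 made up most of that sum, with 5580 counts with 25(OH)D and 4137 in control. With 25(OH)D against control, 1 of 4 tested, Tagln, was called higher, beside 4.76% of all genes. Adipocyte markers summed to 8.19 to 28.1 CPM with 25(OH)D, 7.85 to 17.6 with added BGP, 7.96 to 13.3 with added ZK191784 and 7.80 to 9.28 in control. Only 2 of these 7 were tested. Lpl was called higher and Fabp4 lower with 25(OH)D, beside 4.76% and 3.93% of all genes. Lpl rests on 164 summed counts with 25(OH)D and 1 in control, and Fabp4 on 10 and 76. With ZK191784 Lpl fell by 2.64 against 25(OH)D alone (adjusted p = 0.0288), 1 of 2 tested, beside 2.11% of all genes. Of macrophage and endothelial markers, at 177 to 356 CPM with 25(OH)D, 176 to 385 with added BGP, 198 to 400.5 with added ZK191784 and 209 to 462 in control, 0 of 5 tested were called with 25(OH)D, beside 8.68% of all genes. Most of that sum was Ptprc, with 2116 counts with 25(OH)D and 3170 in control. Their part in the results for the 10 genes was not tested.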

How the data were processed

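The authors deposited whole-number counts of reads per gene for the 12 libraries. The submitters' processing notes name STAR 2.7.9a for alignment to mouse mm39, Subread 2.0.3 with featureCounts, and DESeq2. Neither the strand setting nor the annotation release is known here. Reads of overlapping or antisense genes therefore cannot be separated, and positions in mm39 are not printed.

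Where a symbol was repeated, only its most counted entry took the bare name, which left 882 further entries. Genes were filtered with filterByExpr (min.count 10, min.total.count 15), scaled by TMM and fitted over the 12 libraries, 1 coefficient per group, with edgeR 4.0.16 in R 4.3.3 (robust quasi-likelihood). Each SE was obtained from the log2 fold change and the square root of its F statistic, and the 95% intervals use it. The library ratio divides counts of 83 ribosomal protein genes by those of 13615 pseudogenes and Gm-numbered genes. The procedure was also run on simulated counts, drawn independently for each gene and library. That run held no spread tied to the library ratio, so it does not cover that part of the data. Alternatives were RLE scaling, DESeq2 1.42.0, no filter, a CPM filter of 2 in 3 libraries, a replicate block, the compared groups alone, the library ratio as a covariate, and each library left out. At most 3 called genes per list were named, those with the smallest p, and profile-like genes for 3 members (average log2 CPM of at least 1). The members and lists were chosen with earlier results of these data known.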

Additional observations from a re-analysis of the deposited data

How the results depend on the processing

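Of the single-gene values under alternatives, 870 kept their direction and side of the threshold, 31 lost the call, 27 gained it and 22 changed sign. The cause was not tested. With 25(OH)D against control, 1250 genes were called, 2853 with a covariate for the library ratio, 754 with the 2 groups alone and 820 to 1337 with a library left out; 6 members were called, 4 to 6 with a library left out. Thbs3 was 0.19 with the covariate and −0.47 to 0.39 with a library left out.

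With BGP against 25(OH)D, 0 genes were called, or 6 with the covariate. With a library left out, log2 differences ran from −0.10 to 0.020 for Thbs2, −0.71 to 0.17 for Tnc, −0.68 to 0.050 for Postn, −0.15 to 0.52 for Ccn4, −0.11 to 0.32 for Ccn1, −0.027 to 1.22 for Ccn3, −0.77 to 0.11 for Ccn5 and −1.46 to 1.43 for Ccn2. Against control, 1187 genes were called with BGP, 2685 with the covariate, 705 with the 2 groups alone and 791 to 1226 with a library left out. Members called were 5, and 3 with no filter, where 1248 of 36479 genes were called. They were 8 with the covariate and 5 to 6 with a library left out, where Thbs3 ran from −0.0019 to 0.73.

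With ZK191784 against 25(OH)D, 508 genes were called. They numbered 1641 with the covariate, 449 with the 2 groups alone, 798 with DESeq2 and 275 to 604 with a library left out. Members called were 2, and 6 with the covariate, 4 with the 2 groups alone, 5 with DESeq2 and 1 to 3 with a library left out. Against control, 104 genes were called with ZK191784, 220 with no filter, 671 with the covariate, 39 with the 2 groups alone, 258 with DESeq2 and 34 to 131 with a library left out. Members called were 1, and 2 with no filter, 5 with the covariate, 0 with the 2 groups alone, 3 with DESeq2 and 0 to 1 with a library left out, where Tnc ran from −0.93 to 0.31 and Thbs3 from −0.021 to 0.73.

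In the deposited counts, the column names share the letters A, B and C across groups, in the order of the replicate numbers. What these letters mean is not stated. Deviations from the group mean were correlated between libraries of different groups. Above 0.1 were 4 of 18 same-numbered pairs and 14 of 36 differently numbered pairs. Libraries also differ in the library ratio, so a smaller effect shared by replicate number could not be seen. Whether replicate numbers pair the libraries was thus not settled. With a replicate block, ZK191784 against 25(OH)D gave 334 genes and 1 member called, ZK191784 against control gave 56 genes, and Ccn2 with BGP against 25(OH)D was 0.41. Depth limits Ccn3, Ccn5 and Thbs3, and Ccn2 in control, which rest on few counts.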
